A study of Mus musculus with 10 samples.

Results

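BL10 and BL6 are both inbred strains of the C57 black group, and the question taken up here is which genes differed between their quadriceps muscles. Animals of the 2 strains never shared an array, so BL10 and BL6 were compared through another strain, along 2 chains of arrays. Chain 1 leads from BL10 2 (animals are written as strain and number) through DBA to BL6 1, and chain 2 leads from BL10 1 through BALB to BL6 2. With the correction for the dye, the chains draw on 5 of the 10 arrays of the study. A feature, which is 1 oligonucleotide spotted in duplicate, was taken to agree where both chains had the same sign and a size of at least 1 on the log2 scale, a 2-fold difference. By this measure 34 of the 7697 features agreed, 28 of them with a gene name.

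The study profiled 5 inbred strains, with 2 male mice per strain, on arrays with 2 dyes. BL10 was C57Bl/10ScSnOlaHsd and BL6 was C57Bl/6JOlaHsd, and the strains that linked them were DBA/2OlaHsd (DBA), BALB/cOlaHsd (BALB) and CBA/CaOlaHsd (CBA). None of these mice carried an engineered allele or received a treatment, all came from 1 supplier at 6 weeks of age, and all were killed at 8 weeks for the RNA of the quadriceps. Each animal was labelled once with Cy5 and once with Cy3.

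The black lines of the C57 group were separated early in the history of the laboratory mouse and share most of their genome. BL10 is the usual background of the mdx mouse, in which dystrophin is absent from muscle. Skeletal muscle is built of sarcomeres, in which actin filaments anchored at the Z-disc slide along myosin filaments, with ATP supplied by mitochondria and by glycolysis.

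The values are log2 ratios of Cy5 over Cy3, with each array's median at 0. The arrays labelled BL6 2 over CBA 1 and BALB 1 over CBA 2 hold identical values at every spot, so at least 1 of them does not match its label, and both were left out. Over the 8 arrays left, duplicate spots correlated at r of 0.645 to 0.857. A ratio holds no level, so muscle identity could not be checked by abundance. The 5 measured muscle fibre markers (Acta1, Ckm, Mb, Pvalb and Tnnt3) lay between −0.47 and 0.64 for BL10 minus BL6, and none passed an FDR of 10%. The number of arrays and of animals, 2 per strain, limits the precision. In limma the 5 strains share 1 estimate of the spread for each feature, which also borrows from the other features. An SE or p-value is thus no measure of the spread between the 2 animals of a strain.

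The chains do not share a BL10 animal, but they are not independent once the dye is subtracted. Written out, chain 1 is the array of BL10 2 over DBA 1 minus the array of BL6 1 over DBA 2, and chain 2 holds that second array with the same weight. The array of BL6 1 over DBA 2 therefore enters both chains with a weight of −1. It also had the largest weight of the 8 arrays in the limma fit, −0.80, and the lowest correlation of duplicate spots, 0.645. The only array of BL6 2 had a fitted weight of 0.16. The array of DBA 2 over BALB 1, which is in neither chain, had a fitted weight of −0.40. Across the 7697 features the chains correlated at r = 0.523 (Spearman's rho 0.512), beside r = 0.354 that the shared array alone gives with equal errors and 0.404 with the animals that both chains hold, and features are not independent replicates. Chain 1 had an SD of 0.345 and chain 2 an SD of 0.501, and 69.5% of the features had the same sign in both.

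Nearly every feature that agreed was higher in BL10. Of the 34 features, 33 were higher in BL10, a share of 0.429% of all features, and 1 was lower, a share of 0.013%. Of these, 5 also passed an FDR of 10% in limma, all higher in BL10, a share of 0.065% of the features tested. They are Rnu5g, Pkmyt1, Dnaja2 and the unnamed features 14578 and 13590. No feature passed lower in BL10 (0% of the features tested). At an unadjusted p under 0.05 limma gave 445 features higher and 590 lower in BL10 (13.4% together), while an ordinary test, in which genes do not share their spread, called 0 at that FDR and 791 by unadjusted p. Leaving out 1 animal, with 1 or 2 residual degrees of freedom, moved the count of 5. It was 8 without BALB 1, all higher, 21 without BL10 1 (17 higher, 4 lower) and 33 without BL10 2 (30 higher, 3 lower). The single direction was thus lost without either BL10 animal, and it was also lost without BALB 2, BL6 1 and DBA 1. Without DBA 1 more calls were lower in BL10 than higher. At the lower bar of 0.5 in both chains the directions were closer to even, with 251 features higher (3.26%) and 206 lower (2.68%).

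**Figure D1:**
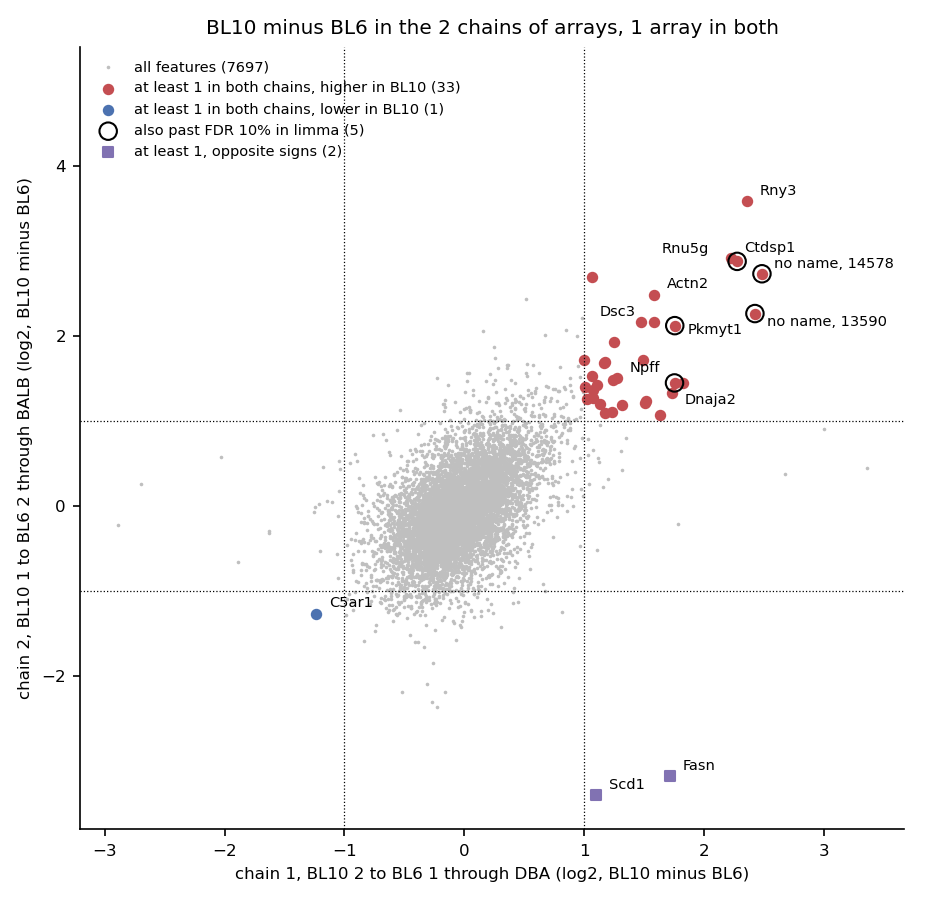
BL10 minus BL6 in chain 1 (x axis, log2) against chain 2 (y axis, log2) for 7697 features, with dotted lines at 1 and −1. The 33 features at least 1 in both chains and higher in BL10 fill the upper right, C5ar1 stands alone at the lower left, and Scd1 and Fasn lie at opposite signs.

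Rnu5g (GenBank M10336), which encodes a spliceosomal RNA, U5, stood high in BL10 on every array that held a BL10 animal. BL10 1 was above BALB 2 by 2.82 and above CBA 1 by 2.69, and BL10 2 was above DBA 1 by 2.21 and above CBA 2 by 2.14. On the arrays of BL6, the ratio of DBA 1 over BL6 1 was 0.01, that of BL6 1 over DBA 2 was −0.07 and that of BALB 2 over BL6 2 was −0.01. So the 4 BL10 values lie far from 0, in both dyes and both animals, and the 3 BL6 values lie next to it. The chains gave 2.28 and 2.88, and limma gave a difference of 2.23 (SE 0.28, adjusted p = 0.0401).

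The unnamed feature 14578 showed the same arrangement. Its BL10 animals were above their partners by 2.44 (BALB 2), 2.84 (CBA 1), 2.75 (DBA 1) and 2.48 (CBA 2), and the 3 arrays of BL6 read −0.04, 0.26 and 0.51. With chains of 2.49 and 2.73, its fitted difference was 2.47 (SE 0.21, adjusted p = 0.00616 in limma). Feature 13590, also without a gene name, was above its partners by 2.07, 2.05, 1.90 and 2.30 in the same order and by 2.02 in the fit (SE 0.25, adjusted p = 0.0401 in limma). Its arrays of BL6 read 0.36, −0.52 and 0.02, so here too the deviation lay on the BL10 side. Without BL6 1 the call of Rnu5g was lost at a difference of 1.86 (adjusted p = 0.186 in limma), that of 13590 at 0.49 (adjusted p = 0.582), and 14578 held at 2.28 (adjusted p = 0.0931). From either spot alone Rnu5g missed the threshold, at 2.30 and 2.17 (adjusted p = 0.127 and 0.132 in limma).

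Rny3 (U34827), the Y3 RNA that binds the Ro60 protein, had chains of 2.36 and 3.58, and its second value was the highest of chain 2 among the 34 features. BL10 stood above its partners by 1.90, 2.11, 1.68 and 1.04, but the arrays of BL6 1 disagreed by dye, at −1.20 with BL6 1 in Cy3 and −0.68 with BL6 1 in Cy5. Its fitted difference of 2.18 had an SE of 0.49 and missed the threshold (adjusted p = 0.250 in limma). Npff, the precursor of neuropeptide FF, was above its partners by 1.76, 1.30, 1.23 and 0.67, with a fitted difference of 1.26 (SE 0.25, adjusted p = 0.176 in limma).

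Of all 7697 features, 11 were above the partner by at least 0.5 on all 4 arrays of BL10, and 1, Tcap, was below by as much. Both BL10 animals and both dyes enter that count, which does not use BL6. It holds 6 of the 34 features, namely Rnu5g, Rny3, Npff and the unnamed 14578, 13590 and 8080. The other 5 are Scel, which encodes sciellin of the epidermal envelope, Bmp15, a growth factor of the oocyte, Pcsk7, a proprotein convertase, Il2ra, the alpha chain of the interleukin-2 receptor, and the unnamed 11787. These 5 were chosen after their values were seen, and none passed the threshold against BL6.

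**Figure D2:**
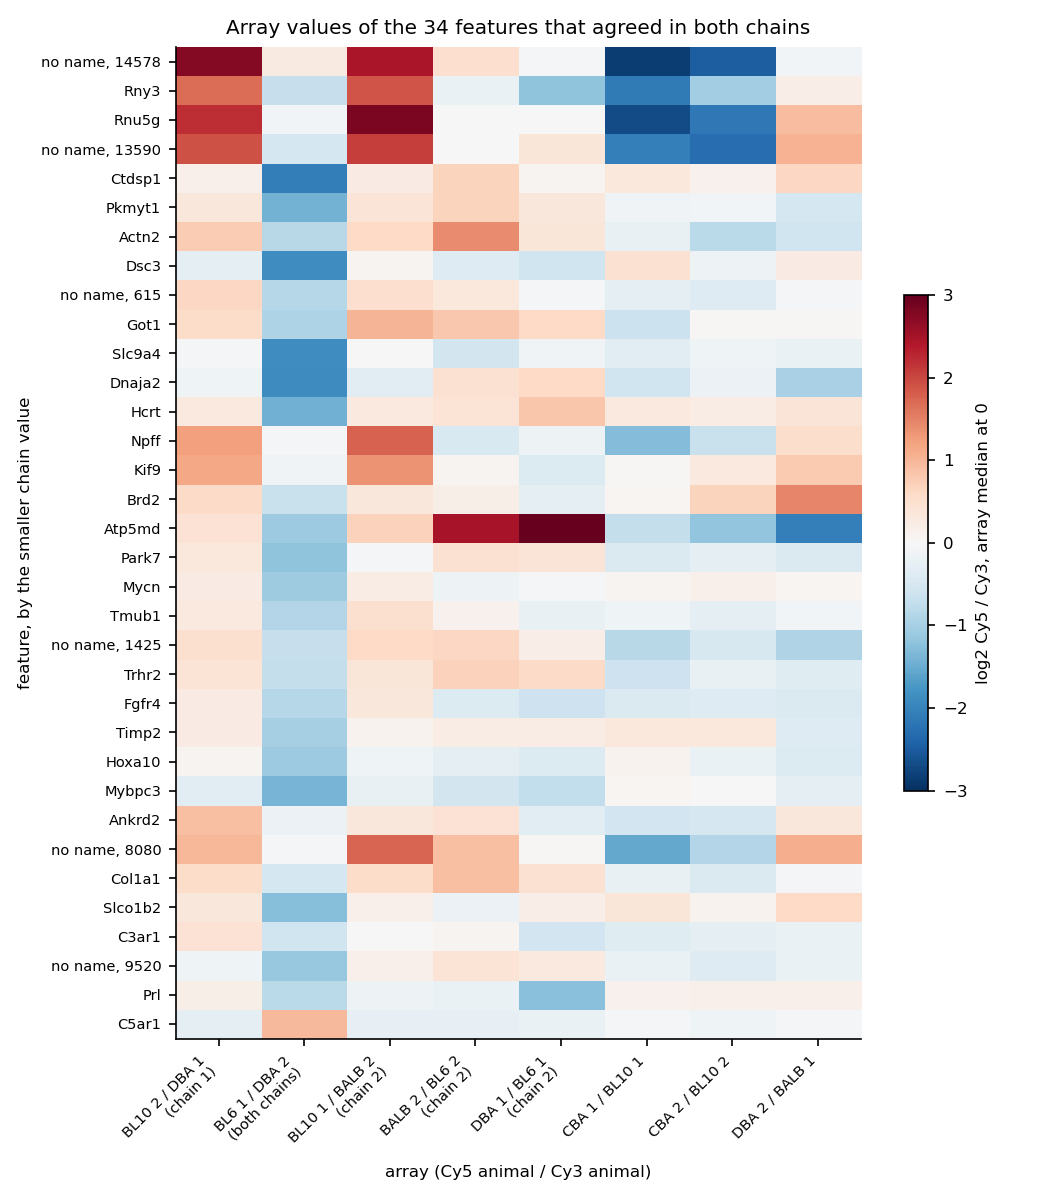
Centred log2 ratios of the 34 agreeing features (rows, ordered by the smaller chain value) on the 8 arrays (columns, Cy5 animal over Cy3 animal), coloured from −3 to 3. Features 14578 and 13590, Rnu5g and Rny3 deviate on the 4 arrays with BL10, and for 19 of the 34 features, Ctdsp1, Pkmyt1 and Dsc3 among them, the value farthest from 0 is on the array of BL6 1 over DBA 2.

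Dnaja2 (NM_019794), a co-chaperone that stimulates Hsp70, differed mainly through low values in BL6. The array of BL6 1 over DBA 2 read −1.89, that of DBA 1 over BL6 1 read 0.60 and that of BALB 2 over BL6 2 read 0.47, so BL6 was the lower animal on all 3. The arrays of BL10 over DBA 1 and BALB 2 read −0.13 and −0.31. All these readings still hold the dye effect, which was −0.65 for this gene in the chains. In the fit, which has a dye term, BL10 stood at 0.51 and BL6 at −1.25 beside the mean of DBA and BALB. Chains of 1.76 and 1.45 led to a fitted difference of 1.76 (SE 0.23, adjusted p = 0.0416 in limma). Its duplicate spots on the array in both chains read −2.91 and −0.89, and the difference was 2.61 from the first spot alone (adjusted p = 0.0572) and 0.95 from the second, where the call was lost (adjusted p = 0.358).

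Pkmyt1 (AF175892), a kinase that holds Cdk1 inactive before mitosis, read −1.42 for BL6 1 over DBA 2, 0.35 for DBA 1 over BL6 1 and 0.66 for BALB 2 over BL6 2. Its arrays of BL10 over DBA 1 and BALB 2 read 0.33 and 0.38. BL6 was thus the lower and BL10 the higher animal on these arrays, with chains of 1.76 and 2.12 and a fitted difference of 1.84 (SE 0.19, adjusted p = 0.0203 in limma). On the array in both chains, however, the duplicate spots read 0.13 and −3.002, and the difference was 0.58 from the first spot alone and 3.09 from the second. With the shared values entered as BL6 2 over CBA 1, the calls of Dnaja2 and Pkmyt1 were lost, at differences of 0.70 and 0.66 (adjusted p = 0.446 and 0.498 in limma), and that of Dnaja2 was also lost without BL6 1, at 1.51 (adjusted p = 0.204), and without BALB 1, at 1.67 (adjusted p = 0.139). As BALB 1 over CBA 2, Pkmyt1 stood at 1.15 (adjusted p = 0.110).

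That gap between duplicate spots recurred among the agreeing features. On the array of BL6 1 over DBA 2, 12 of the 34 features had duplicate spots at least 2 apart on the log2 scale, against 26 of all 7697 features, a share of 0.338%. On each of the other 7 arrays, 0 or 1 of the 34 did. The 12 are Ctdsp1, Hcrt, Dsc3, Pkmyt1, Slc9a4, Slco1b2, Trhr2, Mycn, Park7, Timp2, Got1 and Dnaja2. Because this array chose the members through both chains, the count is a description and carries no test. When each chain was computed from each spot, 19 of the 34 features reached 0.5 in all 4 values and 10 reached 1.

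Ctdsp1, a phosphatase of the RNA polymerase II tail, shows the extreme. Its spots on that array read 0.22 and −4.39, and its difference was −0.01 from the first spot and 3.50 from the second. Hcrt, the precursor of the hypocretin peptides, gave −0.09 and 2.92, and Dsc3, a cadherin of desmosomes, gave −0.14 and 2.64. The second Dsc3 oligonucleotide on the array (AJ000329) differed by −0.09 (SE 0.21). Slco1b2, an anion transporter of the liver, agreed on 1 of its 3 features at chains of 1.63 and 1.07, while the feature with the same accession had a fitted difference of 0.26 and the third 0.04.

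**Figure D3:**
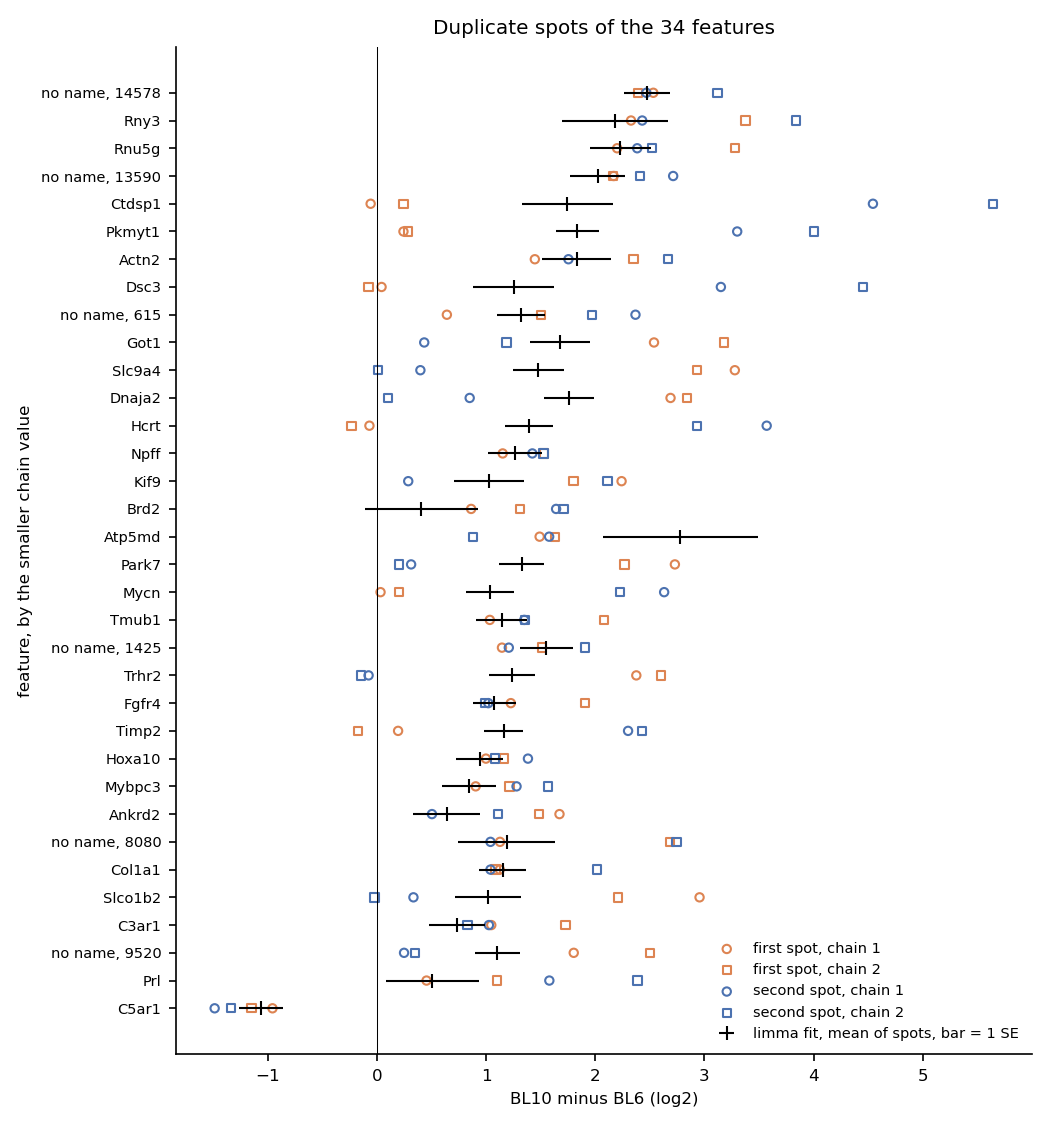
BL10 minus BL6 (x axis, log2) of the 34 agreeing features from the first spot (orange) and the second spot (blue), in chain 1 (circles) and chain 2 (squares), with the limma fit of the mean of both spots in black and 1 SE as the bar. For 14578, Rny3, Rnu5g, 13590, Actn2, Npff and Col1a1 all 4 values lie above 1, whereas Ctdsp1, Pkmyt1, Dsc3 and Hcrt have 1 spot near 0.

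Among the named features whose 4 values all reached 1, Actn2 (AF248643), the alpha-actinin that cross-links actin at the Z-disc, was the only sarcomeric one. Its arrays of BL10 over DBA 1 and BALB 2 read 0.76 and 0.61, and its arrays of BL6 read 0.37 for DBA 1 over BL6 1, −0.83 for BL6 1 over DBA 2 and 1.43 for BALB 2 over BL6 2. BL10 was above and BL6 below the partner on all of these. The chains gave 1.59 and 2.49 and the fit 1.83 (SE 0.32, adjusted p = 0.128 in limma), just short of the threshold. Mybpc3, the cardiac myosin-binding protein C, and Ankrd2, a stretch-responsive ankyrin protein, did not reach 1 in all 4 values, with smallest values of 0.90 and 0.50. They differed by 0.84 (adjusted p = 0.291) and 0.64 (adjusted p = 0.390), both in limma. Mybpc3 stood at −0.09 with the shared values entered as BL6 2 over CBA 1.

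Matrix genes were also among the members. Col1a1, a chain of type I collagen, had chains of 1.07 and 1.53 and differed by 1.15 (SE 0.22, adjusted p = 0.168 in limma), with 1.17 and 1.13 from its spots. Timp2, an inhibitor of matrix metalloproteinases, differed by 1.16 (SE 0.18, adjusted p = 0.106 in limma), but by 0.24 and 2.11 from its spots. In the mitochondrion, Atp5md, a small subunit of ATP synthase, had chains of 1.52 and 1.23. Its fitted difference of 2.78 lay above both chains and was the largest of the 34 features, with an SE of 0.71 and an adjusted p of 0.274 in limma. The array of DBA 2 over BALB 1, in neither chain but with a fitted weight of −0.40, read −2.05 for this gene. Without BL6 1 its difference moved to 8.04. Got1, the cytosolic aspartate aminotransferase, and Park7, a protein of the oxidative stress response, differed by 1.68 and 1.33, and each rested mainly on the first spot.

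The signalling genes with agreeing chains included receptors and ligands that are best known outside muscle. Fgfr4, a receptor for fibroblast growth factors that is made by myogenic cells, differed by 1.08 (SE 0.20, adjusted p = 0.168 in limma), with 1.25 and 0.92 from its spots. Trhr2, a receptor for thyrotropin-releasing hormone, and Prl, which encodes prolactin, differed by 1.24 and 0.51. Slc9a4, a sodium and proton exchanger, differed by 1.48 and Kif9, a kinesin, by 1.03. The spots of Trhr2 (2.10 and 0.40), Slc9a4 (2.65 and 0.35) and Kif9 (1.54 and 0.53) were far apart, and those of Prl gave 0.03 and 0.98. Of the nuclear proteins, Hoxa10, a homeobox factor, differed by 0.94, Mycn, a factor of the Myc family, by 1.03 and Brd2, a reader of acetylated histones, by 0.41 with an SE of 0.52. Mycn gave 0.09 and 2.005 from its spots, Brd2 −0.17 and 1.02, and Hoxa10 1.04 and 0.87. None of the genes in this paragraph passed the threshold. Without BL6 1, Slc9a4 stood at −0.08, Mycn at −0.17, Prl at −1.38 and Brd2 at −3.19. In that setting Kif9 (0.12), Hoxa10 (0.14), Fgfr4 (0.99) and Trhr2 (1.46) stayed above 0.

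The receptors of complement peptides had fitted differences of opposite sign. C5ar1, the receptor of C5a on myeloid cells, was the 1 feature lower in BL10, with chains of −1.24 and −1.27, spots at −0.82 and −1.28 and a fitted difference of −1.06 (SE 0.20, adjusted p = 0.168 in limma). C3ar1, the receptor of C3a, had chains of 1.02 and 1.26 and a fitted difference of 0.74 (SE 0.26, adjusted p = 0.299 in limma). Without BL6 1, C3ar1 stood at −0.43, and with the shared values entered as BL6 2 over CBA 1 at 0.06, whereas C5ar1 stayed below 0, at −0.33 and −0.43. The 9 leukocyte marker features had a median of −0.06, and none passed the threshold.

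Beside the mean of DBA and BALB, BL10 lay farther out than BL6 for 22 of the 34 features and BL6 for 12. Of these 2 strains, BL10 was the one that stood out for feature 14578 (BL10 at 2.41 and BL6 at −0.07), Rnu5g (2.35 and 0.12), Rny3 (2.28 and 0.09), 13590 (1.88 and −0.14), Npff (1.53 and 0.26) and Kif9 (1.18 and 0.15). For Atp5md it was BL6, at −2.34 against 0.43 in BL10. CBA is not part of that mean. For Kif9 the arrays of CBA over BL10 read 0.04 and 0.30, so CBA was no lower than BL10. Dnaja2 stood at −1.25 in BL6 and 0.51 in BL10, Actn2 at −1.02 and 0.80, and Pkmyt1 at −0.996 and 0.84. All 33 features higher in BL10 were above that mean in BL10, and 28 of them were below it in BL6. These deviations draw on the same arrays that chose the 34 features, so the counts describe the selection and carry no test. The median dye effect of the 33 was −0.42, against 0.04 over all features, and it was negative for 31 of them. Because both chains subtract this dye, a negative value raises both, and the rule itself favours such features. The part of the dye in the result was not tested.

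**Figure D4:**
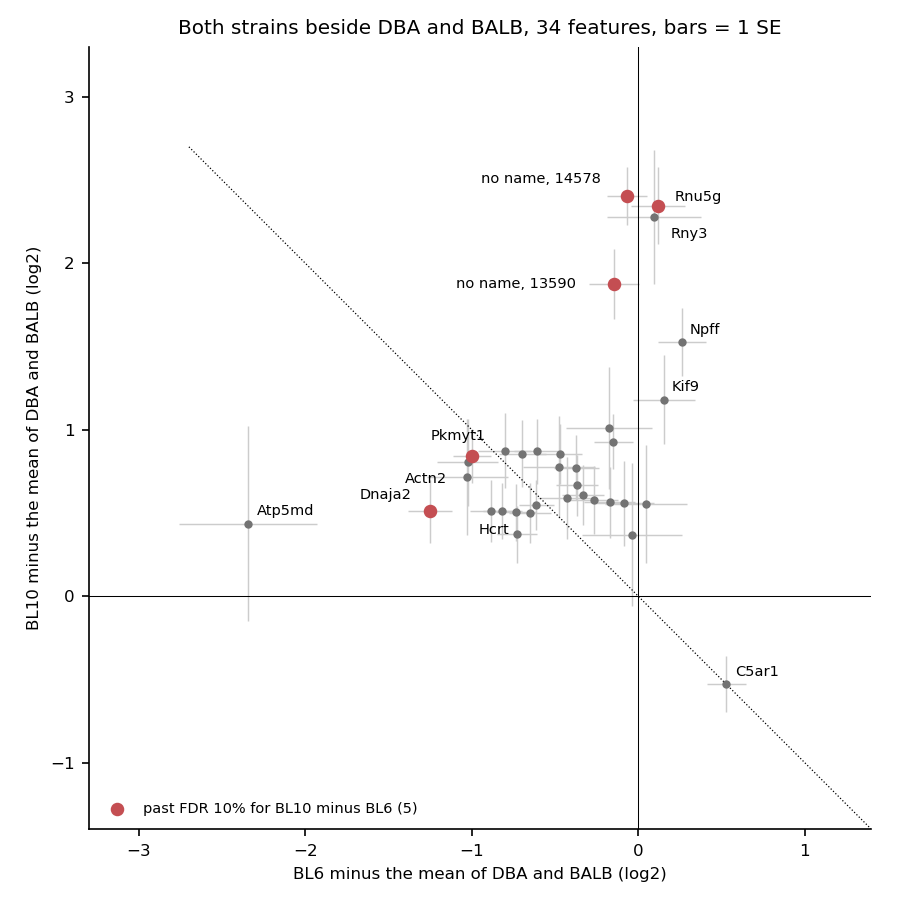
BL6 (x axis) and BL10 (y axis), each minus the mean of DBA and BALB in the limma fit (log2), for the 34 agreeing features, with 1 SE as bars and a dotted line where both lie equally far out in opposite directions. Rnu5g, Rny3 and the unnamed 14578 and 13590 rise along the y axis near 0 for BL6, while Atp5md and Dnaja2 lie far to the left.

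The features with the most uniform deficit in BL6 were not always those with agreeing chains. At the bar of 0.5 used for BL10 above, BL6 was below its partner on its 3 arrays in 21 of all features and above it in 3. At a stricter bar of 0.75 it was below in 8 and above in 0. Both arrays with DBA hold BL6 1, and BL6 2 enters only in Cy3, so this count is not balanced as that of BL10 is. Neb, the giant nebulin of the thin filament, holds 2 of the 8 places. For its feature X70032 the arrays read 2.79 for DBA 1 over BL6 1, 1.23 for DBA 2 over BL6 1 and 2.56 for BALB 2 over BL6 2. BL6 was the lower animal on all 3. Its chains had the same sign, at 1.35 and 0.80, but the second lay below the bar of 1.

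Atp5md, Hrc, which encodes a calcium-binding protein of the sarcoplasmic reticulum, Tnnc2, the fast troponin C, Tpt1, the translationally controlled tumour protein, Pde4dip, a scaffold protein of the centrosome and Golgi, and H19, an imprinted noncoding RNA, complete the 8. Their fitted differences were 2.78, 1.27, 0.70, 1.19, 1.08 and 1.13, and none passed the threshold. They were chosen after their values were seen. Of the 8, Atp5md alone agreed in both chains.

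By gene list, differences between BL10 and BL6 were mostly small. Over all features the median difference was −0.06, and 42.6% of the features were positive. The respiratory chain, TCA cycle and mitochondrial carriers had a fitted median of 0.45 over 37 features, with 30 positive, and chain medians of 0.15 and 0.30. At an unadjusted p under 0.05, 13 were higher and 2 lower in BL10, none passed an FDR of 10%, and none agreed in both chains. Slc25a4, the ADP and ATP exchanger of muscle, was highest at 1.12 (SE 0.31), followed by Ndufa4 and Cox5b, subunits of the respiratory chain, at 0.98 each, and Atp5g1, a subunit of ATP synthase, was lowest at −0.63 (SE 0.26). BL6 was the strain that stood apart, with a median of −0.37 from the mean of DBA and BALB against 0.02 in BL10. Without BL6 1, which leaves 1 array for BL6, the median of this list was 1.57 and 33 features were positive, against −0.11 over all features. Medians of several other lists were higher in that setting too, at 0.65 for glycolysis and glycogen, 0.63 for ribosomal proteins and translation factors, 0.49 for thin filament, Z-disc and M-band, 0.46 for the dystrophin complex and membrane repair, 0.30 for heat shock proteins and 0.29 for calcium release and buffering. They were lower for myosins and thick filament (0.04), immediate early genes (−0.11), histocompatibility and antigen presentation (−0.25) and loci known to vary among strains (−0.31).

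Thin filament, Z-disc and M-band genes had a fitted median of 0.19 over 36 features, 22 of them positive, with 7 higher and 1 lower at an unadjusted p under 0.05 in limma. In the chains the medians of this list were −0.05 and −0.02, beside −0.05 and −0.06 over all features. The 4 Neb features of the list differed in the fit by 2.19, 1.74, 1.42 and 1.03, and Actn2 by 1.83. Myom1, a protein of the M-band, differed by 1.02 (SE 0.33), while Acta1, the skeletal actin, stood at 0.01 (SE 0.18). Capza2, a capping protein of the actin filament, was lowest at −0.53 (SE 0.22). In the chains, the highest and the lowest of these Neb features had the same sign, at 1.35 and 0.80 and at 0.29 and 0.32, and the other two went in opposite directions, with chain 2 values of −0.51 and −1.14. The study singled out 8 genes on these same samples, which is no independent choice. The paper reported Neb, Actn2, Myom1, Rdx and Tmod1 as low in BL6, with Myom1 and Tmod1 also low by quantitative RT-PCR. It found Dysf, Cstb and Thbs4 not to differ between strains and used them as PCR references. Of the 11 features, 4 of which are Neb, 10 were positive, with a fitted median of 1.02 and chain medians of 0.29 and 0.10. The fitted median was 2.50 without BL6 1 and 0.66 with the shared values entered as BL6 2 over CBA 1. Besides Neb, Actn2 and Myom1, the genes gave 0.49 for Tmod1, which caps the thin filament, and 0.45 for Rdx, which links actin to the membrane. Values were 0.25 for Dysf, which serves membrane repair, 0.12 for Thbs4, a matrix protein, and −0.31 for Cstb, a protease inhibitor.

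**Figure D5:**
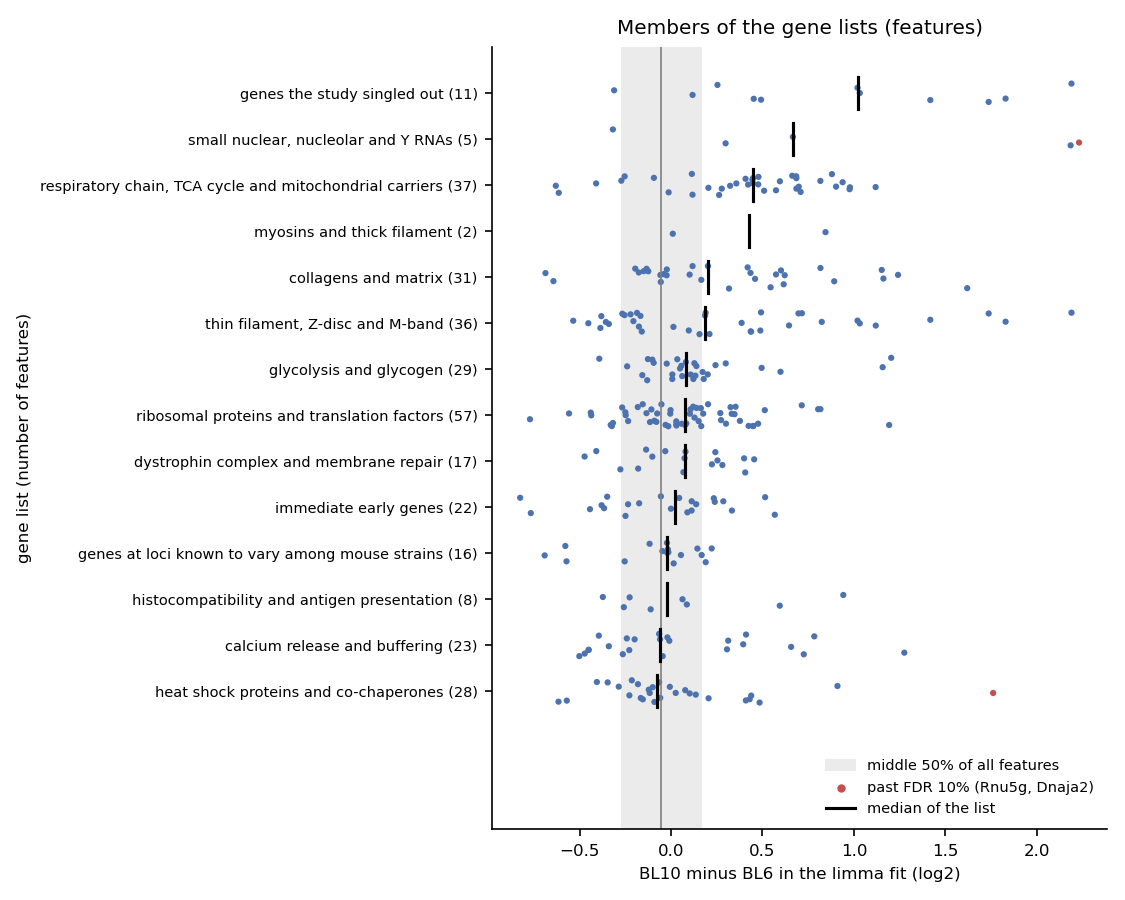
BL10 minus BL6 in the limma fit (x axis, log2) for the features of 14 gene lists, with the number of features in brackets, the median of each list as a black line, and the middle of all features as a grey band around its median. Rnu5g and Dnaja2, in red, passed an FDR of 10%, and the respiratory chain list lies mostly to the right of the band.

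The collagens and matrix list had a median of 0.20 over 31 features, with 10 higher and 2 lower at an unadjusted p under 0.05 and 2 agreeing in both chains. Col3a1, of type III collagen, was highest at 1.62 (SE 0.33, adjusted p = 0.21 in limma), and Sparc, a matrix glycoprotein, followed at 1.24. Eln, which encodes elastin, was lowest at −0.69. The 7 features of fibroblast markers, which include Col1a1 and Col3a1, had a fitted median of 0.46, from −0.69 for Thy1 to 1.62. Their chain medians were −0.12 and −0.12, and their part in the list was not tested. With the shared values entered as BL6 2 over CBA 1, the median of the matrix list was 0.01 and Col3a1 stood at −0.04.

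Of the 5 small nuclear, nucleolar and Y RNAs on the array, Rnu5g passed the threshold and Rnu5g and Rny3 agreed in both chains. Rny1, the Y1 RNA, differed by 0.67 (SE 0.57), Rnu6, the U6 RNA of the spliceosome, by 0.30 and Rnu3a, a nucleolar RNA, by −0.32. Among 28 features of heat shock proteins and co-chaperones, Dnaja2 passed and the median was −0.08. Tcp1, a subunit of the cytosolic chaperonin, followed at 0.91, and Hspa8 (M13967), the constitutive Hsp70, was lowest at −0.61. The 2 features of myosins and thick filament were Mybpc3 and Mybph, another myosin-binding protein, at 0.84 and 0.01.

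Medians of the other lists lay within 0.14 of that of all features, and no member passed an FDR of 10%. Glycolysis and glycogen had 0.08 over 29 features, with 3 higher and 0 lower at an unadjusted p under 0.05. Phka1 (X73876), a subunit of phosphorylase kinase, was highest at 1.20, while the other Phka1 features stood at 0.14 (X73877) and −0.09 (NM_008832). Ribosomal proteins and translation factors had 0.08 over 57 features, calcium release and buffering −0.06 over 23, the dystrophin complex and membrane repair 0.07 over 17, immediate early genes 0.02 over 22, and histocompatibility and antigen presentation −0.02 over 8. At loci known to vary among mouse strains, the 16 measured genes lay between −0.69 for Thy1, a surface glycoprotein, and 0.22 for Mx1, an interferon-induced GTPase, with 0 higher and 2 lower at an unadjusted p under 0.05. Nnt, the mitochondrial transhydrogenase, differed by −0.25 (SE 0.19).

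Scd1 and Fasn, enzymes of fatty acid synthesis, were the 2 features with chains of at least 1 in opposite directions. Scd1 read 1.10 in chain 1 and −3.40 in chain 2, and Fasn read 1.72 and −3.18. For Scd1 the array of BL10 1 over BALB 2 read −1.25, that of BL10 2 over DBA 1 read 1.98 and that of BALB 2 over BL6 2 read −2.20. Fabp4, the fatty acid carrier of adipocytes, was at 0.82 and −1.25. Fitted differences of 1.29 (SE 1.58) for Scd1 and 1.41 (SE 1.52) for Fasn were smaller than their SE. That of Fabp4, 1.60 (SE 0.96), was larger than its SE but missed the threshold (adjusted p = 0.480 in limma). All 3 genes belong to the adipocyte markers, whose other 6 features lay between −0.24 and 0.85, and no marker passed the threshold. Hba-a1, the alpha chain of haemoglobin, had chains of 3.004 and 0.90 and a fitted difference of 1.97 (SE 0.77, adjusted p = 0.32 in limma), while the other 5 features of red blood cell markers lay between −0.29 and −0.01.

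Although BL10 and BL6 are the closest relatives by name, their fitted difference was not the smallest of the 10 pairs of strains. Its median size over features was 0.22 at a median SE of 0.21, a ratio of 1.05, which ranked above 8 pairs and below BL6 against BALB at 1.33. By median size alone, CBA against BL6 (0.29), CBA against BALB (0.29) and CBA against DBA (0.26) were larger. BL10 against DBA had a median size of 0.16 at an SE of 0.18, and BL10 against BALB 0.17 at 0.20. DBA against BALB had the lowest ratio, at 0.82. The pairs share animals and differ in their SE, so that this order is a description and was not tested.

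The bar of 1 cut through a continuous range. Just inside it lay C3ar1 at a smaller chain value of 1.02, the unnamed 9520 at 1.01 and Prl at 1.003, and just outside it Csn1s2a, which encodes a milk casein, at 0.99, Gnb4, a G protein subunit, at 0.99 and Pex7, a receptor for peroxisomal import, at −0.98. The array in both chains read −1 or less for 13 of the 33 features higher in BL10, against 199 of all features, a share of 2.59%. It gave at least 50% of both chain values for 18 of the 33, or 54.5%, beside 45.8% of the 2182 features positive in both chains. When chain 2 was formed with another dye estimate that leaves this array out, 23 of the 34 features kept their sign in it and 10 kept their sign at a size of at least 1. Without BL6 1 the fitted differences of 25 of the 34 features kept their sign, and without BL6 2 those of all 34.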

How the data were processed

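Quadriceps RNA of 10 mice was hybridised on 10 arrays of 65-mer oligonucleotides by the authors, who quantified the spots with GenePix, subtracted local background and normalized by VSN in R. What they deposited, for each of 15552 spots, is the natural log of the ratio of Cy5 to Cy3. Scale and direction follow the VSN method and the dyes per the labels. Intensities and spot flags are not part of these values, so limits from signal over background cannot be given. Here ratios were converted to log2, arrays centred on their median, duplicate spots averaged to 7776 features, and the 80 copies of a control oligonucleotide merged. Of the 7697 features left, 6752 had a gene name from the platform annotation, updated through a RefSeq table. Neither source gave a name for the features written by number.

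The fit used limma 3.58.1 in R 4.3.3 on 8 arrays, with strain terms, a dye term for each gene and the animal as replicate (ratio of animal to array variance 0.446, by restricted maximum likelihood). It left 3 residual degrees of freedom, with 6.13 prior ones, and p-values were adjusted over all features by the method of Benjamini and Hochberg. The dye of the chains was the mean of the arrays DBA 1 over BL6 1 and BL6 1 over DBA 2. Alternatives were the shared values under either label or both, other scalings, each spot, no dye term, independent arrays, an ordinary test, robust eBayes, other thresholds, other dye estimates, a replicate block and leaving out each animal. FDRs of 15% and 20%, the fit of the agreeing features and lists under these settings, and agreement without the last 2 of 12 equal stretches of the deposited order were added after the data were seen. Steps were tested on simulated data, and matplotlib 3.10.9 under Python 3.11.15 drew the figures.

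The comparison, its members and the gene lists were chosen with earlier results of these data known. Genes were named if they passed an FDR of 10%, were among the 12 with the largest smaller chain value in a direction, were highest or lowest in a list, had the largest opposite chains, or stood in the lists of genes singled out by the study or of variable loci. Other genes are named where the text says so, or as further members of the 34 agreeing features, lists and marker sets.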

Additional observations from a re-analysis of the deposited data

How the results depend on the processing

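All 5 calls at an FDR of 10% were higher in BL10, and the number and the direction of the calls changed with the setting. With the shared values entered as BL6 2 over CBA 1, and with all 10 arrays, 5 features passed, 3 of them shared, and entered as BALB 1 over CBA 2, 119 passed (109 higher, 10 lower). No centring gave 10, equal spreads 102 (60 higher, 42 lower), quantile normalization 52 (45 higher, 7 lower), the second spot 12 (10 higher, 2 lower), no dye term 1, the ordinary test 0 (791 at an unadjusted p under 0.05), robust eBayes 10, an FDR of 15% 15 and of 20% 29 (26 higher, 3 lower). Leaving out single animals gave 5 to 2299 features, with calls in both directions without BALB 2, BL10 1, BL10 2, BL6 1 and DBA 1; without DBA 2 the strain difference cannot be told apart from the dye, and no value was obtained. The animal numbers pair nothing across strains; with the number as a replicate block 2 features passed (1 higher, 1 lower), 1 of them shared, and the calls of Dnaja2, Rnu5g, 13590 and Pkmyt1 were lost (adjusted p of 0.165, 0.165, 0.141 and 0.141 in limma).

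Agreement in both chains held for 457 features at 0.5 and for 8 at 1.5. It held for 1172 (221 higher, 951 lower) with no dye subtracted, for 54 with the dye of the limma fit, for 66 from the first spot, for 107 from the second, for 10 with each chain from each spot, and for 30 (25 higher, 5 lower, 10 shared) with no array in both chains. Without the last 2 of 12 equal stretches of the deposited order 24 agreed, all higher. The chains correlated at r of 0.880 with no dye subtracted, 0.204 with no array in both, 0.466 from the first spot and 0.603 after quantile normalization. The causes were not tested.

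For 76 features, all 34 agreeing ones and those of the genes chosen by the naming rule, without genes chosen only as variable loci, single differences kept their sign and their side of the threshold in 1346 comparisons with a setting, gained a call in 206, lost it in 27 and changed sign in 93. Phka1 is X73877 here unless its accession is given, and Hspa8 is M19141. The sign changed with the shared values as BL6 2 over CBA 1 for Mybpc3 (−0.088), Phka1 (−0.040), Prl (−0.11), Tmub1 (−0.23), Hspa8 (0.17), Mx1 (−0.0026), Col3a1 (−0.044), both Dsc3 features (−0.12 and 0.10) and Mybph (−0.40), as BALB 1 over CBA 2 for Prl (−0.091), Hspa8 (0.29), Dsc3 (0.065) and Mybph (−0.015), and with all 10 arrays for Mybpc3 (−0.13), Hoxa10 (−0.023), Prl (−0.14), Tmub1 (−0.28), Phka1 (−0.054), Atp2a2 (0.019), Hspa8 (0.21), Mx1 (−0.0056), Capza2 (0.015), Col3a1 (−0.065), Dsc3 (−0.17 and 0.12), Mybph (−0.36) and Thbs4 (−0.0016). Equal spreads turned Phka1 (−0.28) and Mybph (−0.22), and quantile normalization Mybph (−0.082). The first spot turned Brd2 (−0.17), Dsc3 (−0.14 and 0.22), Ctdsp1 (−0.0095), Mybph (−0.13) and Hcrt (−0.088), and the second Slco1b2 (−0.031), Hk1 (0.23), Rnu3a (0.093), Phka1 NM_008832 (0.48) and Dysf (−0.27). Without a dye term Mybpc3 (−0.27), Prl (−0.20), Phka1 (−1.55), Atp2a2 (0.19), Hspa8 (0.74, and 0.098 for M13967), Mx1 (−0.0061), Atp5g1 (0.067), Capza2 (0.22), Dsc3 (0.19), Klf4 (−0.13) and Thbs4 (−0.043) changed sign. Leaving out single animals spanned 0 for Brd2 (−3.19 to 1.34), Slco1b2 (−1.41 to 1.60), Prl (−1.38 to 1.23), Ankrd2 (−1.11 to 1.14), C3ar1 (−0.43 to 1.10), Mycn (−0.17 to 1.33), Phka1 (−0.13 to 1.15, and −0.22 to 0.015 for NM_008832), Napsa (−0.91 to 2.25), Hk1 (−0.28 to 0.65), Psmb8 (−0.33 to 0.43), Mybph (−0.27 to 0.15), Slc9a4 (−0.078 to 1.85), Mybpc3 (−0.0090 to 1.17), Hspa8 (−0.16 to 0.11), Mx1 (−0.68 to 0.44), Rnu3a (−0.51 to 0.51), Hcrt (−0.026 to 1.73), Sntb1 (−0.84 to 0.67), Cstb (−0.77 to 1.65), Neb AF203899 (−0.098 to 5.31), Scd1 (−0.52 to 3.47), Dsc3 (−0.21 to 0.026), Fasn (−0.029 to 2.72), Rdx (−0.32 to 2.50) and Dysf (−0.16 to 1.86).

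Brightness over background is not known, so that features near background could not be told from bright ones. With 8 arrays, differences of small size have wide intervals, and a p that missed the threshold does not show that the strains were alike.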

Other observations

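At an FDR of 20% limma gave 26 features higher and 3 lower in BL10. The lower ones were C5ar1, Cpn1, the catalytic subunit of carboxypeptidase N, which cleaves complement peptides, at −1.003 (SE 0.18), and Cacnb4, a beta subunit of voltage-gated calcium channels, at −1.04 (SE 0.21). Higher ones outside the 34 agreeing features included Lbp, the lipopolysaccharide-binding protein, at 1.41 (SE 0.28), Cyp46a1, the cholesterol 24-hydroxylase, at 1.11 (SE 0.21), and Sebox, a homeobox factor, at 1.36 (SE 0.26). They were chosen after their values were seen.

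Features with close numbers in the deposited order tended to stand together. Got1, Slco1b2, Park7, Slc9a4, Mybpc3 and Dnaja2 bear the numbers 104, 121, 122, 139, 154 and 208, and on the array of BL6 1 over DBA 2 the first spot of each was the lower one, from −3.31 for Slc9a4 to −1.93 for Mybpc3. Agreement at 0.5 lower in BL10 was found for 6 features, or 0.926%, in the first of 12 equal stretches of the deposited order and for 57 features, or 9.36%, in the eleventh. The stretches were set here from the fixed distance between duplicate spots, and what they are on the slide is not given in the sources used here. What lies behind this order was not tested.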
